A study of Homo sapiens with 30 samples.

Results

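The transcriptional response of HCT116 cells to 16 h of ML-792 was described from 6 of the 30 libraries of the series, 3 of cells given 500 nM ML-792 and 3 of cells given 0.01% DMSO as vehicle. HCT116 is an established colorectal cancer cell line. ML-792 (ML00754792 in the labels) inhibits the SUMO-activating enzyme. A gene was kept where 3 or more of these libraries reached 1 FPKM, which left 12355 of the 30373 genes in the table, 11246 of them protein coding. FPKM is a count of sequenced fragments scaled for transcript length and library size. The other libraries used for comparison were HCT116 given the same dose or vehicle for 3.5 h without heat shock, and COLO205 (colorectal) and MDAMB231 (breast) cells given them for 16 h, with 3 libraries in each group. The protocols describe biological triplicates of stranded polyadenylated RNA libraries, and the p-values measure the spread between those 3 samples per group.

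SUMO proteins are small ubiquitin-like modifiers that are joined to lysines of other proteins, most of them nuclear. The SUMO-activating enzyme, a dimer of SAE1 and UBA2, passes the modifier on to conjugation, and ligases of the PIAS family and others direct it to substrates. SENP proteases remove it again. Conjugated SUMO is known for holding transcriptional repressors and H3K9 methylation complexes at chromatin, and for its role in chromosome segregation.

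The 6 libraries were close in scale. Each had 12256 to 12323 genes at 1 FPKM or more, and the mitochondrially encoded genes took 16.3% to 18.4% of the summed FPKM. Relative depth, estimated from ratios of low values, was 0.854 to 1.06 of the first ML-792 library, but only 13.6% to 15.1% of the ratios lay at the most frequent value, and the absolute depth is unknown. The median SD between replicates was 0.0689 in ML-792 and 0.0699 in DMSO libraries on the scale of log2(FPKM + 1). EPCAM, the general epithelial surface marker, stood at 119, 136 and 134 FPKM in ML-792 libraries, against 105, 119 and 116 FPKM in DMSO libraries. The keratins KRT8, KRT18 and KRT19 were between 411 and 839 FPKM in every library. Of the intestinal markers, CDX2 was present at 5.04 to 5.9 FPKM in ML-792 libraries and 5.44 to 6.63 FPKM in DMSO libraries, while CDX1 and CEACAM6 were listed at 0 in all 6 and VIL1, CDH17, LGALS4 and GPA33 were close to 0. Of 20 markers of leukocytes, red cells, fibroblasts, endothelium and other tissues, only COL1A1 and DES passed the filter on low values, and CD3E, COL1A2, DCN, LUM and PDGFRA were listed at 0 in all 6.

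At 16 h, 1316 genes (10.7%) differed between ML-792 and DMSO libraries by limma at a Benjamini-Hochberg adjusted p under 0.05. Of the 12355 genes, 727 (5.88%) were higher and 589 (4.77%) were lower. Most of the changes were small. The median log2 change was 0.30 among genes called higher and -0.29 among genes called lower, 1146 of the called genes changed by less than 0.5 on the log2 scale, and 139 by 0.5 to 1. Only 31 genes (0.251%) were called with a change of at least 2-fold in FPKM + 1, a log2 change of 1 or more. Of these, 23 were higher and 8 lower, and 5 carry only clone names. Some called genes at low levels passed 2-fold in mean FPKM alone, such as ZNF274 with a ratio of 2.26 and a log2 change of 0.99. The values of the 3 ML-792 libraries did not overlap those of the 3 DMSO libraries in any of the 1316, which also held without a test for 16.2% of all genes in the higher and 14.3% in the lower direction. Over all genes the median change was 0.005. The number of calls rested on single libraries: without the second ML-792 library it was 297 higher and 192 lower, without the third 350 and 254, without the second DMSO library 362 and 227, without the third 456 and 296, and without the first ML-792 library it was 1091 and 971. Scaling every library to an equal FPKM total gave 552 higher and 882 lower genes, which put 38.5% of the calls on the higher side instead of 55.2%.

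**Figure D1:**
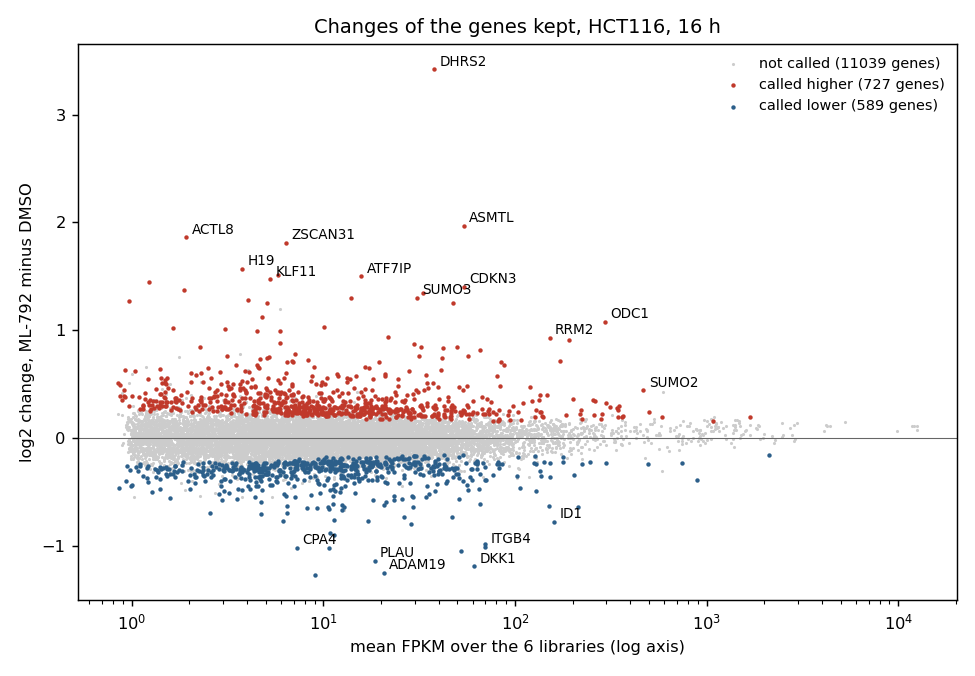
Log2 change on the log2(FPKM + 1) scale (vertical axis, ML-792 minus DMSO) of the 12355 genes kept against their mean FPKM over the 6 libraries (horizontal log axis), with 727 genes called higher and 589 called lower coloured. DHRS2 stands apart at 3.42, and most called genes lie within 0.5 of 0 at all levels.

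The direction of change was related to base composition. Across genes, the Spearman correlation between the log2 change and the GC content of the longest annotated transcript was -0.49 over 11649 genes, given as a description since genes share their libraries. With the genes cut into 5 equal bins by GC content, 10.1% of the lowest bin were called higher and 1.03% lower, and of the highest bin 2.1% were called higher and 10.1% lower. Replicates also differed from each other along GC content: the Spearman correlation of a library's deviation from its group mean with GC was 0.75, -0.33 and -0.71 in the ML-792 libraries and -0.57, -0.09 and 0.66 in the DMSO libraries. After a trend with GC and length was removed from each library, the correlation of the change with GC was 0.01, and 1267 genes (10.3%) were called higher and 1101 (8.91%) lower. Of the 1316 genes, 1217 kept their call and direction and 99 lost it, and none reversed. Counts for gene groups are also given with the trend removed, to be read against these shares of 10.3% and 8.91%. The part of GC content in the changes of these groups was not tested.

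**Figure D2:**
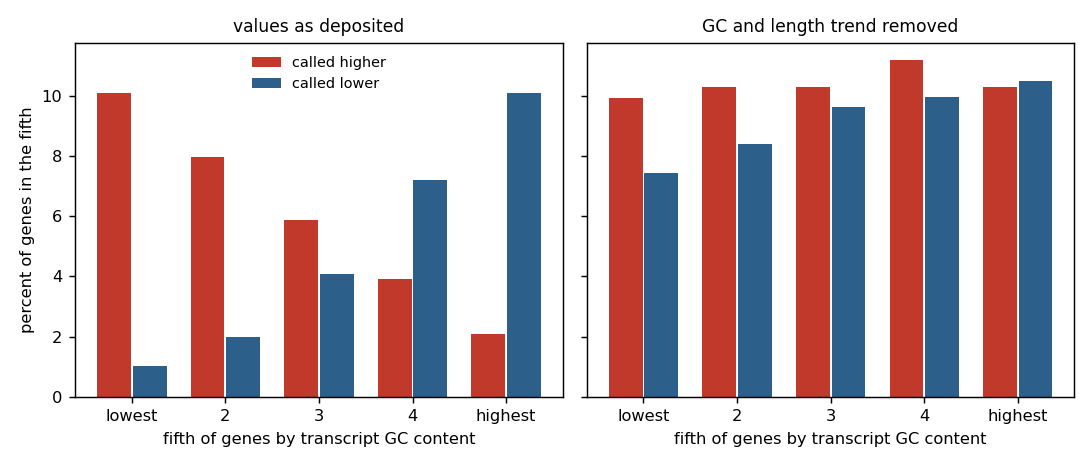
Percent of genes called higher and lower (vertical axis) in 5 equal bins of genes by transcript GC content (horizontal axis), with the values as deposited (left) and after removal of the GC and length trend (right). As deposited, the share called higher runs from 10.1% in the lowest bin to 2.1% in the highest, and after removal it lies between 9.91% and 11.2%.

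The genes of the SUMO system itself showed a rise of SUMO2 and SUMO3 and no change past the test in the enzyme that ML-792 targets. SUMO3 was at 42.3, 45.0 and 45.5 FPKM in ML-792 libraries, against 17.1, 17.4 and 17.7 FPKM in DMSO libraries. These groups lay far apart, with a log2 change of 1.30 ± 0.05 (SE; adjusted p = 9.3e-08, limma). SUMO2 stood at 502, 553 and 562 FPKM in ML-792 libraries, against 393, 416 and 381 FPKM in DMSO libraries. It rose by 0.44 ± 0.06 (adjusted p = 0.00083). Processed copies of SUMO2 lie elsewhere in the genome, and how the authors assigned reads shared with them is not given in the sources used here. The activating subunit SAE1 was at 119, 117 and 119 FPKM in ML-792 libraries and 121, 122 and 120 FPKM in DMSO libraries (-0.03 ± 0.04, adjusted p = 0.66), and its partner UBA2 changed by 0.04 ± 0.06 (adjusted p = 0.66). Of 27 SUMO modifiers, enzymes and proteases, 3 were called higher and none lower, against 5.88% and 4.77% of all genes, the third being the desumoylating isopeptidase DESI2 (0.36 ± 0.07, adjusted p = 0.008). With the trend removed the counts were 4 higher and 1 lower, against 10.3% and 8.91% of all genes, and without the first ML-792 library 6 were called higher. Of 13 PML nuclear body genes 1 was called higher and none lower, and with the trend removed none was called higher and 1 lower.

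Genes of G2 phase and mitosis rose together. Of 42 such genes, all of which passed the filter, 28 were called higher and none lower, with a median log2 change of 0.25, against 5.88%, 4.77% and 0.005 over all genes. The change was above 0 in 41 of the 42, and in 37 all ML-792 values lay above all DMSO values, as in 16.2% of all genes. The largest was CDKN3, a phosphatase that acts on CDK1 and CDK2, with 74.8, 79.8 and 82.1 FPKM in ML-792 libraries, against 29.5, 29.2 and 28.8 FPKM in DMSO libraries. Its groups were separated by more than the spread of either, with a log2 change of 1.40 ± 0.05 (adjusted p = 7.2e-08). CENPA, the histone H3 variant that marks centromeres, was at 20.8, 22.6 and 22.3 FPKM in ML-792 libraries and 14.9, 15.1 and 13.9 FPKM in DMSO libraries (0.55 ± 0.06, adjusted p = 0.00015). KIF20A, a kinesin of late mitosis, was at 43.7, 44.1 and 43.9 FPKM in ML-792 libraries and 31.1, 30.5 and 29.7 FPKM in DMSO libraries (0.51 ± 0.05, adjusted p = 6.5e-05). Members that did not pass included CDK1, CDC20, AURKB, UBE2C and BIRC5, which are named here after their values were seen. The list's transcripts were AT-rich, with a median GC content of 43.2%, and with the trend removed 33 were called higher and none lower. Without the second ML-792 library or the second DMSO library 16 of the 42 were called higher, and without the third ML-792 library 17. In bulk RNA, a larger share of cells in a cycle phase and more RNA per cell cannot be told apart.

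Promoters of such genes commonly carry a CCAAT box, bound by NF-Y, and a cell cycle homology region with the letters TTTGAA, bound by the DREAM and B-MYB complexes. The promoters of CDKN3 and CENPA are shown as those of members that rose and hold both motifs, and that of ATF7IP, a gene of H3K9 silencing, as one of a gene outside the list that rose and holds both. They are RefSeq sequences of GRCh38.p14, from 250 bases before to 50 after the start, on the plus strand at chr14:54396757-54397056, chr2:26785806-26786105 and chr12:14365432-14365731. Capitals mark CCAAT and TTTGAA on either strand (ATTGG and TTCAAA on the other).
CDKN3: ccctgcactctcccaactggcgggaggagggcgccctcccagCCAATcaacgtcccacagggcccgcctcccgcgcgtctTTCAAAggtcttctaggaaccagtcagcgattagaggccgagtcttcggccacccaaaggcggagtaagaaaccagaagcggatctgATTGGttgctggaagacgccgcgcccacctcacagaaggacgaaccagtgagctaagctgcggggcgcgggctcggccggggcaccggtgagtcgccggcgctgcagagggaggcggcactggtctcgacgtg
CENPA: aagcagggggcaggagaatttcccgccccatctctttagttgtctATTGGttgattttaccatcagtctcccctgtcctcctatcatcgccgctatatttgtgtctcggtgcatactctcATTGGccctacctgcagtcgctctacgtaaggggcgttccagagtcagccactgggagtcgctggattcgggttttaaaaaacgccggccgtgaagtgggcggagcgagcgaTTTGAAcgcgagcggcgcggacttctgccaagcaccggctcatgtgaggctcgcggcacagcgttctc
ATF7IP: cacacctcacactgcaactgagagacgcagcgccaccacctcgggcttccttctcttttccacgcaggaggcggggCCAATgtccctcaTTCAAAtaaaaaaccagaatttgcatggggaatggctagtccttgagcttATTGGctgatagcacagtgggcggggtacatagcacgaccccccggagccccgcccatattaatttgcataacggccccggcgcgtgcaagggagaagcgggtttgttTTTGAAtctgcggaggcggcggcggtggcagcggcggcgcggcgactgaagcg

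Each motif was counted on its own, so that sites of different motifs could overlap, and a match is only a match of letters. Of the 42 genes 36 had a promoter in the RefSeq table, of which 28 (77.8%) held CCAAT, 22 (61.1%) held TTTGAA and 20 (55.6%) held both. Among the 9491 promoters of genes kept, 37.0% held CCAAT, 8.89% held TTTGAA and 3.87% held both. Promoters of genes called higher held both in 9.03% of 565 cases, or 6.85% of 540 without the members of the list, and promoters of genes called lower in 1.57% of 447. Within the list, 14 of 20 genes with both were called higher at a median of 0.24, and 11 of 16 without both at a median of 0.28. Whether the motifs go with the size of the change was not tested. GGGCGG, the SP1 site, was found in 69.0% of promoters of genes called higher, 76.7% of those called lower and 72.5% of all. TGANTCA, the AP-1 site, was found in 6.37%, 6.94% and 4.1% in the same order, TTTCCCGC, an E2F site, in 2.48%, 1.57% and 2.73%, and TGACGTCA, the cAMP response element, in 3.19%, 3.13% and 3.41%. Promoters of genes called higher had a median GC content of 64.0%, and those of genes called lower 69.3%.

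Of 38 genes of DNA replication and S phase, the phase before G2, 1 was called higher and 2 were called lower, with a median change of 0. Over all genes 5.88% were called higher and 4.77% lower, and 10.3% and 8.91% with the GC trend removed. The count of S phase genes called lower was 7 with the GC trend removed, 5 with equal totals and 4 without the first ML-792 library. It was 1 without the second or the third library of either group. The gene called higher was RRM2, the small subunit of ribonucleotide reductase, at 186, 202 and 207 FPKM in ML-792 libraries and 104, 106 and 101 FPKM in DMSO libraries (0.93 ± 0.05, adjusted p = 1.4e-06). The genes called lower were the transcription factor E2F1 (-0.37 ± 0.07, adjusted p = 0.0082) and the replicative helicase subunit MCM5 (-0.24 ± 0.06, adjusted p = 0.028). Of 18 CDK inhibitors, cyclins and G1 kinases, 5 were called higher, CDKN3 among them, and none lower, and 8 with the GC trend removed. CDKN2C, an inhibitor of CDK4 and CDK6, was at 5.86, 6.74 and 7.31 FPKM in ML-792 libraries and 3.32, 3.64 and 3.69 FPKM in DMSO libraries (0.74 ± 0.08, adjusted p = 0.00016). Its relative CDKN2D was at 12, 10.9 and 12.3 FPKM in ML-792 libraries, against 7.19, 8.11 and 8.28 FPKM in DMSO libraries (0.52 ± 0.07, adjusted p = 0.00083). CDKN1A, the p21 inhibitor, was at 145, 144 and 136 FPKM in ML-792 libraries and 124, 126 and 129 FPKM in DMSO libraries. Its groups did not overlap, yet it missed the threshold with the deposited values (0.16 ± 0.05, adjusted p = 0.052) and passed it with the trend removed (0.22, adjusted p = 0.0013).

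Among 22 genes of H3K9 methylation and silencing, 5 were called higher and none lower, where 5.88% and 4.77% of all genes were. The counts were the same with the GC trend removed, where 10.3% and 8.91% of all genes were called, and 5 to 7 were called higher with any 1 library left out. The largest was ATF7IP, the cofactor that stabilizes the H3K9 methyltransferase SETDB1, with 23.1, 24.2 and 23.7 FPKM in ML-792 libraries, against 8.31, 7.33 and 7.53 FPKM in DMSO libraries. That is 3.06 times the DMSO mean, with a log2 change of 1.5 ± 0.06 (adjusted p = 9.3e-08). Its paralog ATF7IP2 was at 3.3, 3.13 and 3.37 FPKM in ML-792 libraries and 2.24, 2.18 and 2.1 FPKM in DMSO libraries (0.43 ± 0.06, adjusted p = 0.0017). ZNF274, a zinc finger protein that brings SETDB1 to its target sites, was at 7.8, 8.42 and 8.46 FPKM in ML-792 libraries and 3.79, 3.69 and 3.43 FPKM in DMSO libraries (0.99 ± 0.06, adjusted p = 2.9e-06). The remaining pair, named after their values were seen, were FAM208A, a subunit of the HUSH silencing complex, and its partner MORC2. SETDB1 itself was at 14.4, 14.4 and 13.3 FPKM in ML-792 libraries and 13.5, 12.9 and 13.6 FPKM in DMSO libraries, which overlapped (0.07 ± 0.06, adjusted p = 0.46). Among 19 genes of DNA methylation and polycomb repression 1 was called higher and 4 lower, with the de novo methyltransferase DNMT3A (-0.30 ± 0.06, adjusted p = 0.012) and the maintenance factor UHRF1 (-0.29 ± 0.06, adjusted p = 0.01) among those called lower. Removal of the trend gave 2 higher and 4 lower. Without the second ML-792 or the second DMSO library 1 of the 19 was called lower.

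Zinc finger genes with many C2H2 fingers, a family of mostly transcriptional repressors that read DNA with tandem finger arrays, rose in many members by small amounts. Of 502 genes whose transcripts encode at least 5 C2H2 matches 311 passed the filter, and 86 of these were called higher and 2 lower, with a median change of 0.13, against 5.88%, 4.77% and 0.005 over all genes. In 146 all ML-792 values lay above all DMSO values, and in 13 below, against 16.2% and 14.3% of all genes. Of the 311, 60 carry no ZNF name, and 6 of these 60 were called higher and none lower, at a median of 0.06. With the trend removed 7 of the 60 were called higher and 1 lower, against 10.3% and 8.91% of all genes. With any 1 library left out, 2 to 8 were called higher. ZSCAN31, described below, is in this part. Of 76 ZNF-named genes with fewer matches, 6 were called higher and 1 lower, at a median of 0.01. Removal of the trend gave 7 higher and 4 lower, and with the deposited values 3 were called higher without the second or the third library of either group. The largest riser was ZSCAN31, a SCAN-domain factor, with 9.77, 11.4 and 10.5 FPKM in ML-792 libraries, against 2.21, 2.3 and 2.36 FPKM in DMSO libraries. Its groups were far apart (1.81 ± 0.07, adjusted p = 7.2e-08). After ZNF274, described above, ZNF84 stood at 3.81, 4.45 and 4.38 FPKM in ML-792 libraries and 2.05, 2.2 and 1.98 FPKM in DMSO libraries (0.76 ± 0.07, adjusted p = 7.9e-05). Of 35 SCAN-domain genes 6 were called higher and none lower (6 and 1 with the trend removed), among them ZNF165 (0.56 ± 0.07, adjusted p = 0.0009), and 3 without the second or the third ML-792 or the third DMSO library. The median GC content of the transcripts with at least 5 matches was 44.5%, and with the trend removed 93 were called higher and 3 lower. The count was 49 without the second or the third ML-792 library, 57 without the second and 54 without the third DMSO library, and 29 at a filter of 5 FPKM, since many of these genes lie at low levels. The family has many close copies, and how shared reads were counted is not given in the sources used here.

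**Figure D3:**
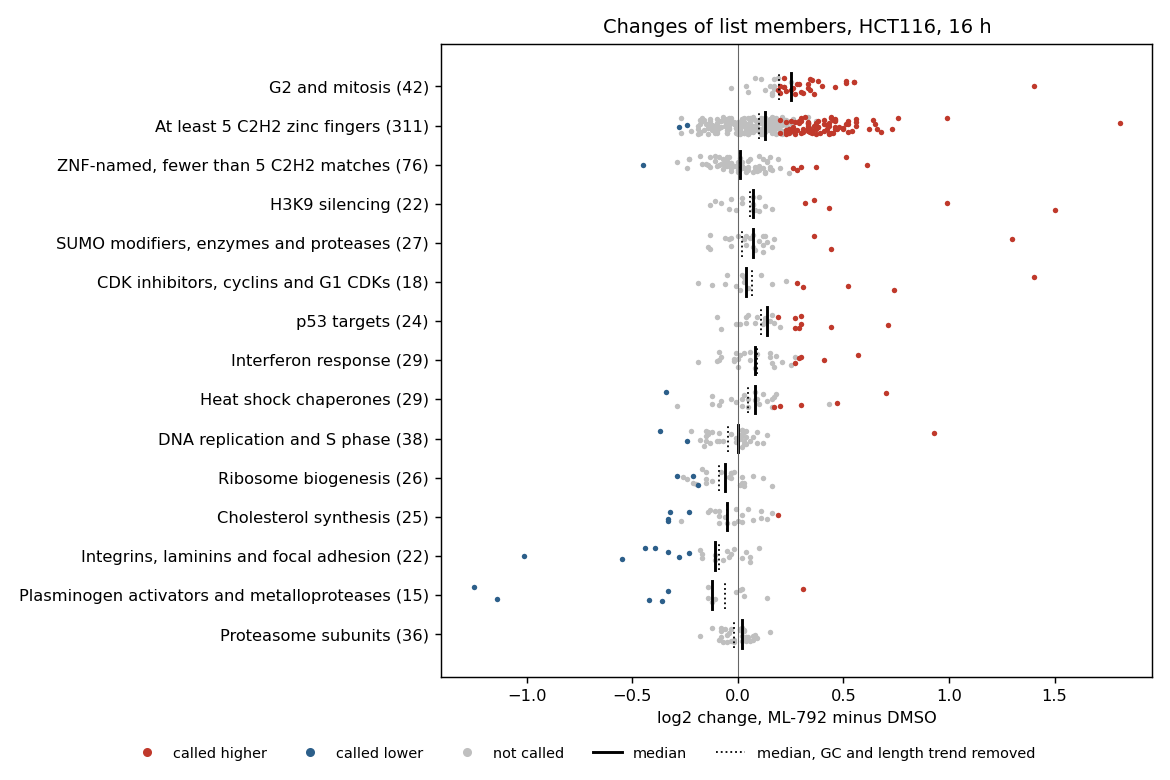
Log2 change on the log2(FPKM + 1) scale (horizontal axis, ML-792 minus DMSO) of the members kept in 15 gene lists (rows, with the number kept), with called genes coloured, the median of each list as a solid line and the median with the GC and length trend removed as a dotted line. The G2 and mitosis list has 28 of 42 members called higher at a median of 0.25, and the proteasome list has none of 36 called.

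Outside these groups, the largest rise on the log2(FPKM + 1) scale belonged to DHRS2, a short-chain dehydrogenase of the mitochondrion and nucleus. It was at 69.8, 72.4 and 68.9 FPKM in ML-792 libraries, against 5.5, 5.47 and 5.98 FPKM in DMSO libraries, a mean of 70.3 ± 1.81 against 5.65 ± 0.285 FPKM (SD, n = 3 each) and a ratio of 12.4. On the log2(FPKM + 1) scale the change was 3.42 ± 0.05 (adjusted p = 2.9e-11). No other member of its family was called higher. Of 11 DHRS genes 4 were called lower, also with the trend removed, against 4.77% of all genes and 8.91% with the trend removed. DHRS11 (-0.29 ± 0.06, adjusted p = 0.016) and DHRSX (-0.33 ± 0.07, adjusted p = 0.016) were among them. Only 2 were called lower without the second or the third ML-792 library, 1 without the third DMSO library and none without the second. The median change of the 11 was -0.01, with 5 above 0 and 6 below. ASMTL, a protein related to the last enzyme of melatonin synthesis, was at 89.0, 88.7 and 81.8 FPKM in ML-792 libraries and 18.9, 22.7 and 22.7 FPKM in DMSO libraries (1.97 ± 0.07, adjusted p = 7.2e-08). RGS2, which switches off G protein alpha subunits, was at 47.0, 49.1 and 48.0 FPKM in ML-792 libraries and 17.3, 19.4 and 18.4 FPKM in DMSO libraries (1.34 ± 0.05, adjusted p = 1.1e-07). ODC1, the first enzyme of polyamine synthesis, was the most abundant of the large risers at 373, 412 and 411 FPKM in ML-792 libraries, against 191, 187 and 185 FPKM in DMSO libraries (1.08 ± 0.05, adjusted p = 3.3e-07). Secreted factors were among them too. EREG, a ligand of the EGF receptor, was at 234, 248 and 268 FPKM in ML-792 libraries and 136, 130 and 132 FPKM in DMSO libraries (0.91 ± 0.06, adjusted p = 2.9e-06), and FGF19, a hormone of the ileum that lowers bile acid synthesis, was at 40.8, 37.9 and 37.7 FPKM, against 19.1, 20.6 and 22.8 FPKM in DMSO libraries (0.87 ± 0.07, adjusted p = 1.8e-05). EHF, an ETS factor of epithelia, rose by 0.94 ± 0.06 (adjusted p = 2.9e-06), and FAM195B, of which no role is given here, by 0.84 ± 0.07 (adjusted p = 6.3e-05).

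**Figure D4:**
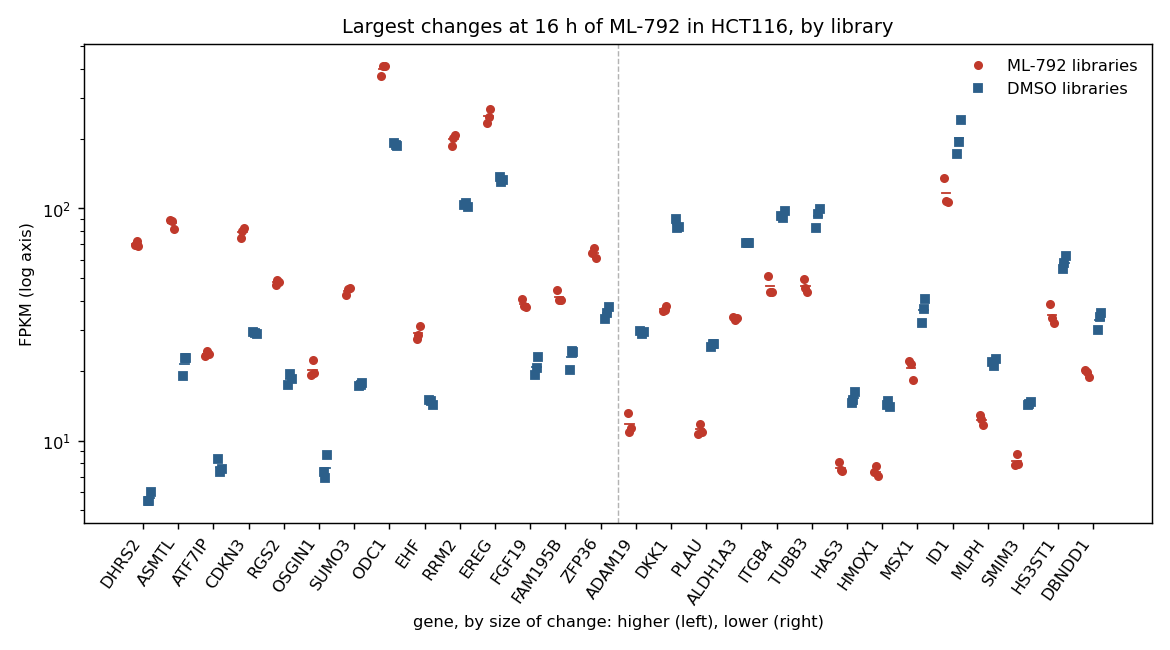
FPKM (vertical log axis) in each of the 3 ML-792 and 3 DMSO libraries, with group means as short lines, for the 14 largest rises (left of the dashed line) and 14 largest falls (right) among called genes with a mean above the median of genes kept and groups that do not overlap. ML-792 points lie above DMSO points in the left part and below them in the right part, with the widest gap in DHRS2 and the widest spread in ID1.

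Some of the largest rises were of genes at low levels in vehicle-treated cells. ACTL8, an actin-like gene of testis that is also found in tumours, was at 3.45, 3.88 and 3.41 FPKM in ML-792 libraries and 0.316, 0.163 and 0.304 FPKM in DMSO libraries (1.86 ± 0.08, adjusted p = 1.4e-07). Its ratio of means was 13.7, above the 12.4 of DHRS2, with DMSO values below 1 FPKM. H19, an imprinted long non-coding RNA, was at 8.03, 5.13 and 5.38 FPKM in ML-792 libraries and 1.36, 1.35 and 1.43 FPKM in DMSO libraries, with the first ML-792 library above the other two (1.57 ± 0.13, adjusted p = 0.00027). KLF11, a Kruppel-like repressor, was at 7.96, 8.26 and 8.44 FPKM in ML-792 libraries and 2.39, 2.39 and 2.19 FPKM in DMSO libraries (1.47 ± 0.06, adjusted p = 1.1e-07). LINC00085 rose by 1.51 ± 0.07 (adjusted p = 1.6e-07) and TCN1, a vitamin B12 carrier, by 1.37 ± 0.07 (adjusted p = 6.2e-07). Of 37 genes in the germline list 4 passed the filter, of which 1 was called higher and 1 lower, against 5.88% and 4.77% of all genes. The counts were the same with the trend removed, against 10.3% and 8.91%. The melanoma antigen PRAME was called higher, at 38.8, 42.4 and 39.1 FPKM in ML-792 libraries against 22.7, 23.7 and 23.4 FPKM in DMSO libraries (0.76 ± 0.05, adjusted p = 7.8e-06). TEX19 was called lower (-0.50 ± 0.08, adjusted p = 0.0036). The list holds neither ACTL8 nor CT45A3 (1.27 ± 0.09, adjusted p = 1.4e-05; named after its values were seen). ACTL8, TCN1 and CT45A3 passed the filter only through their ML-792 libraries, and TEX19 only through its DMSO libraries. Entry of these genes into the test depended on the group where they are high, and their adjusted p does not take this into account.

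Falls were found among proteases and adhesion genes. ADAM19, a membrane metalloprotease, was at 13.1, 10.9 and 11.3 FPKM in ML-792 libraries, against 29.8, 28.8 and 29.5 FPKM in DMSO libraries (-1.25 ± 0.07, adjusted p = 8.1e-07). PLAU, urokinase, which activates plasminogen, was at 10.7, 11.8 and 10.9 FPKM in ML-792 libraries and 25.2, 26.1 and 26.0 FPKM in DMSO libraries (-1.14 ± 0.05, adjusted p = 3.3e-07), and its receptor PLAUR fell less (-0.42 ± 0.06, adjusted p = 0.0013). Of 15 plasminogen activators, metalloproteases and their inhibitors that passed the filter, 1 was called higher and 5 lower, with and without the GC trend. Of 22 integrins, laminins and focal adhesion genes none was called higher and 7 were called lower, at a median of -0.11, against 5.88% and 4.77% of all genes. ITGB4, the integrin subunit of hemidesmosomes, was at 51.1, 43.7 and 43.7 FPKM in ML-792 libraries and 92.5, 90.6 and 97.7 FPKM in DMSO libraries (-1.01 ± 0.07, adjusted p = 4.5e-06). ITGA3, a laminin-binding subunit, was at 51.0, 46.5 and 44.9 FPKM in ML-792 libraries and 62.5, 63.9 and 68.3 FPKM in DMSO libraries (-0.44 ± 0.06, adjusted p = 0.0011), and the adaptor PXN fell by 0.39 ± 0.05 (adjusted p = 0.0011). The transcripts of this list were GC-rich at a median of 54.7%, and with the trend removed 2 were called higher and 11 lower, against 10.3% and 8.91% of all genes. CD44, the hyaluronan receptor, was at 89.0, 85.8 and 91.2 FPKM in ML-792 libraries and 124, 124 and 120 FPKM in DMSO libraries (-0.46 ± 0.05, adjusted p = 0.00014), and HAS3, a hyaluronan synthase, was at 8.11, 7.45 and 7.38 FPKM, against 14.5, 14.9 and 16.2 FPKM in DMSO libraries (-0.90 ± 0.06, adjusted p = 6.9e-06).

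Further large falls were of single genes with other roles. DKK1, a secreted antagonist of WNT signalling, was at 36.1, 36.4 and 38.1 FPKM in ML-792 libraries and 90.2, 82.7 and 83.3 FPKM in DMSO libraries (-1.19 ± 0.05, adjusted p = 1.6e-07). ALDH1A3, which makes retinoic acid, was at 34.0, 33.1 and 33.8 FPKM in ML-792 libraries and 70.7, 71.0 and 70.9 FPKM in DMSO libraries, with hardly any spread in either group (-1.05 ± 0.04, adjusted p = 1.5e-07). TUBB3, a beta-tubulin best known from neurons, was at 49.6, 45.3 and 43.5 FPKM in ML-792 libraries and 82.4, 94.8 and 99.9 FPKM in DMSO libraries (-0.98 ± 0.07, adjusted p = 2.1e-05). Others in this range were the homeobox factor MSX1 (-0.80 ± 0.09), the melanosome linker MLPH (-0.77 ± 0.06), the heparan sulfate enzyme HS3ST1 (-0.73 ± 0.07), and SMIM3 and DBNDD1, with adjusted p from 1.1e-05 to 0.00085. At lower levels, the carboxypeptidase CPA4 was at 4.33, 4.51 and 4.43 FPKM in ML-792 libraries and 12.8, 8.39 and 9.29 FPKM in DMSO libraries (-1.02 ± 0.13, adjusted p = 0.002), and the membrane proteins SUSD2 (-0.77 ± 0.06) and TMEM200A (-0.70 ± 0.07) fell as well. ID1, an inhibitor of basic helix-loop-helix factors, was at 135, 108 and 107 FPKM in ML-792 libraries, against 171, 194 and 241 FPKM in DMSO libraries (-0.78 ± 0.15, adjusted p = 0.021). Both of its groups were wide, and it lost the call without the second DMSO library (adjusted p = 0.087), without the second ML-792 library (0.11) and without the third (0.10).

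Signalling targets moved in both directions within the same list. Of 10 TGF-beta and BMP target genes 3 were called higher and 3 lower. The ID genes diverged: ID2 was at 75.7, 87.1 and 89.4 FPKM in ML-792 libraries and 46.4, 48.3 and 46.1 FPKM in DMSO libraries (0.82 ± 0.06, adjusted p = 1.8e-05), while ID3 was at 45.8, 37.9 and 38.7 FPKM in ML-792 libraries and 56.3, 60.2 and 66.2 FPKM in DMSO libraries (-0.57 ± 0.08, adjusted p = 0.0018). Of 22 feedback regulators and ligands of the ERK pathway 4 were called higher and 3 lower. The EGF receptor ligand TGFA rose (0.57 ± 0.05, adjusted p = 7.9e-05), and ERRFI1, which inhibits that receptor, was at 116, 116 and 123 FPKM in ML-792 libraries, against 187, 185 and 178 FPKM in DMSO libraries (-0.63 ± 0.05, adjusted p = 1.5e-05). Of 18 immediate early factors 4 were called higher and 5 lower. Here ZFP36, a factor that destabilizes mRNA, was at 64.3, 67.9 and 61.2 FPKM in ML-792 libraries and 33.4, 35.4 and 37.8 FPKM in DMSO libraries (0.84 ± 0.06, adjusted p = 9.4e-06), and its paralog ZFP36L1 was at 55.1, 53.6 and 53.7 FPKM in ML-792 libraries and 75.8, 74.6 and 75.0 FPKM in DMSO libraries (-0.47 ± 0.04, adjusted p = 0.0001). KLF4 fell (-0.52 ± 0.07, adjusted p = 0.00083). Of 11 AP-1 subunit genes 1 was called higher, FOS (0.35 ± 0.06, adjusted p = 0.0035), and 2 lower, FOSL2 (-0.71 ± 0.07, adjusted p = 0.00016) and FOSL1 (-0.48 ± 0.05, adjusted p = 0.00023). Of 13 WNT targets and antagonists 3 were called higher, with TCF7L2 (0.33 ± 0.05, adjusted p = 0.0022) among them, and 4 lower. The rises of the TGF-beta list fell to 1 without the second or the third ML-792 or the second DMSO library, and those of the immediate early list to 1 without the second library of either group and 2 without the third of either. The YAP list of 12 had 2 called lower, F3 and WWTR1, but none without the second ML-792 or the second DMSO library, and 2 called higher without the first DMSO library. With the trend removed, the counts higher and lower were 3 and 3 for the TGF-beta list, 5 and 5 for the ERK list, 5 and 5 for the immediate early list, 3 and 2 for the AP-1 list, 5 and 3 for the WNT list, and 2 and 2 for the YAP list. Over all genes 5.88% were called higher and 4.77% lower, and 10.3% and 8.91% with the trend removed.

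Stress and damage responses were small. Of 24 p53 target genes 8 were called higher and none lower, at a median of 0.14, and 13 higher with the GC trend removed. Over all genes 5.88% were called higher and 4.77% lower, and 10.3% and 8.91% with the trend removed. The largest change was that of GDF15, a stress-induced cytokine named here after its values were seen (0.71). MDM2, a ubiquitin ligase, was at 31.8, 35.7 and 37.5 FPKM in ML-792 libraries and 28.1, 24.9 and 23.9 FPKM in DMSO libraries (0.44 ± 0.07, adjusted p = 0.0044). DDB2, of nucleotide excision repair, rose by 0.27 ± 0.05 (adjusted p = 0.005), and the death receptor FAS by 0.30 ± 0.06 (adjusted p = 0.011). Only 3 of the 24 were called higher without the second or the third ML-792 library, and 4 without the second DMSO library. Of 24 apoptosis regulators 4 were called higher, led by the BH3-only gene PMAIP1 (0.47 ± 0.07, adjusted p = 0.0022), and none lower, but 1 without the second ML-792 library and 2 without the third or without the second or the third DMSO library, and of 33 DNA repair genes 1 was called higher and 2 lower. Removal of the trend gave 5 higher and 2 lower for apoptosis and 2 higher and 5 lower for repair. Of 29 heat shock chaperones that passed the filter 5 were called higher and 1 lower. SERPINH1, the collagen chaperone, was at 112, 105 and 96.1 FPKM in ML-792 libraries and 59.7, 63.9 and 69.0 FPKM in DMSO libraries (0.70 ± 0.07, adjusted p = 0.00012), and HSPH1 rose by 0.47 ± 0.05 (adjusted p = 0.00031). HSPA1B fell (-0.34 ± 0.07, adjusted p = 0.014), with the limit that reads could be split between it and its near-identical neighbour HSPA1A. With the trend removed the chaperone counts were 10 higher and 2 lower. The count of 5 was 2 without the second or the third ML-792 library or the second DMSO library, and 3 without the third DMSO library.

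Of 29 interferon response genes 5 were called higher and none lower, and 9 higher with the trend removed, against 5.88% of all genes called higher and 10.3% with the trend removed. Without the second ML-792 library 2 were called higher. HLA-B, which presents peptides to T cells, was at 94.1, 97.4 and 97.9 FPKM in ML-792 libraries and 60.0, 65.0 and 68.6 FPKM in DMSO libraries (0.57 ± 0.06, adjusted p = 0.00011). Reads that class I genes share could be split between them, and B2M, their common light chain, rose by 0.30 ± 0.06 (adjusted p = 0.011). IFIT1 rose from a low level (0.41 ± 0.07, adjusted p = 0.0045). Of 13 NF-kB targets and cytokines 3 were called higher, RELB (0.46 ± 0.06, adjusted p = 0.00096) among them, and 1 lower, and with the trend removed 7 and 1. Of 20 genes of the unfolded protein response 4 were called higher, among them CREB3L2 (0.44 ± 0.05, adjusted p = 0.00045), and none lower, with 1 called without the second ML-792 library and 2 without the third or without the second or the third DMSO library. Removal of the trend gave 7 higher and 1 lower.

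Redox, metabolic and histone lists differed in the number and direction of their calls. Over all genes 5.88% were called higher and 4.77% lower, and 10.3% and 8.91% with the trend removed. OSGIN1, a growth inhibitor induced by oxidative stress, was at 19.1, 22.2 and 19.5 FPKM in ML-792 libraries and 7.29, 6.93 and 8.65 FPKM in DMSO libraries (1.30 ± 0.08, adjusted p = 4.5e-06). HMOX1, heme oxygenase, another target of NRF2, was at 7.31, 7.74 and 7.01 FPKM in ML-792 libraries, against 14.3, 14.8 and 14 FPKM in DMSO libraries (-0.88 ± 0.06, adjusted p = 4.3e-06). In all, 3 of 19 NRF2 and redox genes were called higher and 2 lower. Of 25 cholesterol synthesis genes 1 was called higher and 4 lower, with DHCR7 (-0.32) among those called lower, and with the trend removed 3 and 8. Of 26 ribosome biogenesis genes none was called higher and 3 were called lower, led by RRP12 (-0.29 ± 0.06, adjusted p = 0.01), and with the trend removed 1 and 10. Of 26 genes of the ATF4 response none was called higher and 2 were called lower, and of 25 hypoxia genes 1 was called higher, KDM3A (0.39 ± 0.06, adjusted p = 0.0033), and 4 lower. Histone genes with polyadenylated forms had 5 of 13 called higher, led by HIST1H2BK (0.57 ± 0.05, adjusted p = 0.00011), and 1 lower, and reads of such close copies could be split. With the trend removed the counts higher and lower were 3 and 4 for NRF2, 1 and 4 for ATF4, 4 and 4 for hypoxia and 5 and 1 for histone genes. The counts of these small lists rested on single libraries. The ATF4 genes called lower numbered 4 without the first ML-792 library, 3 without the first DMSO library, 1 without the second of either group, 2 without the third DMSO library and none without the third ML-792 library. Without the second ML-792 library there was 1 NRF2 gene called higher, 2 cholesterol genes and 1 ribosome biogenesis gene called lower, no hypoxia gene called lower and 2 histone genes called higher. Without the third ML-792 library there was 1 NRF2 gene, 1 ribosome biogenesis gene, 2 hypoxia genes and 3 histone genes in the same directions, without the second DMSO library 1, 1, 1 and 2 in the same order, and without the third 1, 1, 2 and 2. Without the first ML-792 library 9 ribosome biogenesis genes were called lower, and without the first DMSO library 5. None of 36 proteasome subunits, 15 mitochondrially encoded genes or 8 mesenchymal markers was called. Of 80 ribosomal protein genes 1 was called higher, of 79 respiratory chain genes 2 were called higher and 1 lower, and of 17 epithelial markers KRT8 and KRT18 were called lower, by 0.23 and 0.24 on the log2 scale. Neither marker call was made without the second or the third library of either group. With the trend removed the proteasome list had 2 called lower, the mesenchymal list 1 lower, the mitochondrially encoded genes none, the ribosomal proteins 6 higher, the respiratory chain 2 higher and 2 lower, and the epithelial markers 1 higher and 3 lower.

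The response at 16 h was set beside that of separate HCT116 libraries at 3.5 h, where 728 of 11611 genes (6.27%) were called, 464 (4.0%) higher and 264 (2.27%) lower. Of the 681 genes called higher at 16 h that were also tested at 3.5 h, 237 (34.8%) were called higher at both, which is 51.7% of the 458 called higher at 3.5 h and tested at 16 h. Of the 556 called lower, 87 (15.6%) were called lower at both, or 33.1% of 263, and 7 genes had opposite calls. Of the 23 genes with at least a 2-fold rise, 18 were tested at 3.5 h and 16 of those were called higher there, at a median of 0.63. DHRS2 changed by 1.31 at 3.5 h and 3.42 at 16 h, and SUMO3 by 0.38 and 1.30. Among the 14 largest rises, only FGF19 changed more at 3.5 h (1.04) than at 16 h (0.87). These genes were chosen by their change at 16 h, which favours larger values there, so no course over time is read from them. RRM2 was not called at 3.5 h (0.06, adjusted p = 0.22), nor were ITGB4 (-0.01, adjusted p = 0.94) and MLPH (-0.11, adjusted p = 0.096). Of the G2 and mitosis list 15 of 42 were called higher at 3.5 h at a median of 0.07, and of the heat shock chaperones 15 of 29. Differences between the times were not tested.

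In the other lines at 16 h, 40.1% of 12050 genes were called in COLO205, 20.0% higher and 20.1% lower, and 17.8% of 12145 in MDAMB231, 8.8% higher and 8.95% lower. The lines share no control libraries. Of the HCT116 genes called higher and tested there, 348 (54.9% of 634) were also called higher in COLO205 and 216 (32.6% of 662) in MDAMB231. Of those called lower, 217 (46.6% of 466) were called lower in COLO205 and 181 (36.6% of 495) in MDAMB231. Opposite calls were found for 66 genes in COLO205 and 46 in MDAMB231. Of the 23 rises of at least 2-fold, 12 of 16 tested in COLO205 and 15 of 16 tested in MDAMB231 were called higher there, and none lower. The G2 and mitosis list had 39 of 42 called higher in COLO205, at a median of 0.39, and 6 higher and 3 lower in MDAMB231, at a median of -0.04. The list of at least 5 C2H2 matches had 50 of 301 called higher and 2 lower in HCT116 at 3.5 h, 76 and 30 of 279 in COLO205, and 35 and 1 of 291 in MDAMB231. In MDAMB231 none of 38 S phase genes was called higher and 18 were called lower. The integrin list had 14 of 22 called lower in MDAMB231 and 7 of 21 in COLO205. ITGB4 changed by -0.60 in MDAMB231 (adjusted p = 0.00034) and by -0.05 in COLO205 (adjusted p = 0.3).

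**Figure D5:**
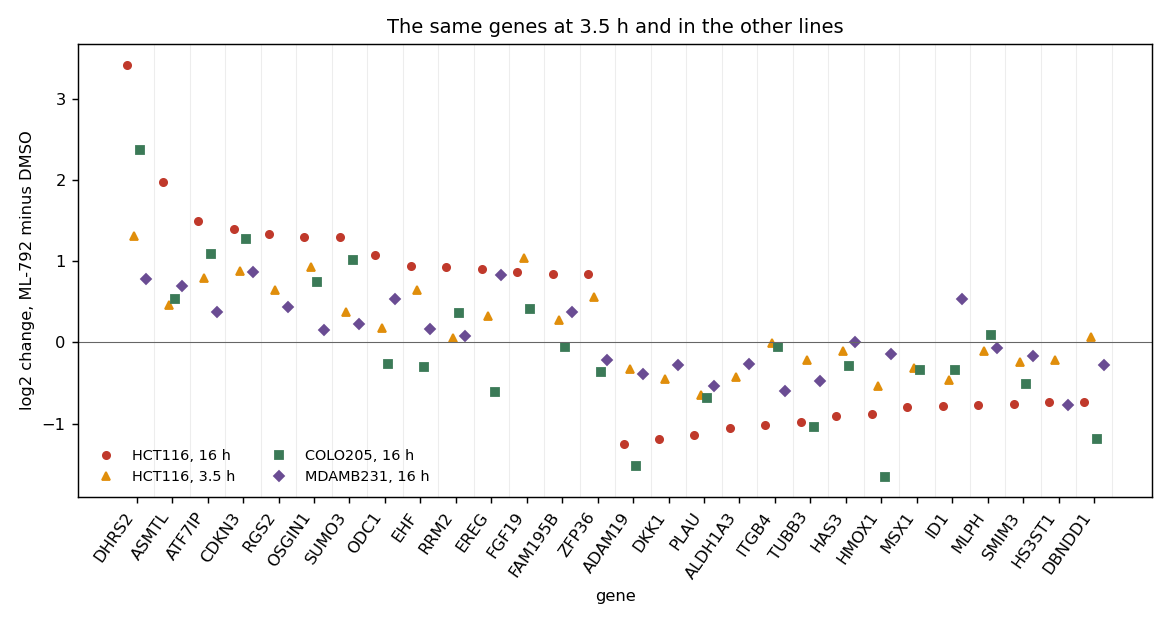
Log2 change on the log2(FPKM + 1) scale (vertical axis, ML-792 minus DMSO) of the 28 genes with the largest changes at 16 h in HCT116 (horizontal axis), with the change of the same gene in HCT116 at 3.5 h and in COLO205 and MDAMB231 at 16 h where it was tested. HCT116 at 16 h lies furthest from 0 for most genes, with HMOX1, TUBB3, ADAM19 and DBNDD1 larger in COLO205, HS3ST1 in MDAMB231 and FGF19 at 3.5 h. The genes were chosen by their change in HCT116 at 16 h, which favours larger values there.

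The difference itself was tested as the effect in HCT116 minus the mean of the effects in COLO205 and MDAMB231, over all 18 libraries of 16 h. Of 14251 genes, 1725 (12.1%) differed, 837 (5.87%) with the higher and 888 (6.23%) with the lower effect in HCT116. The count was 1264 with 0.1 added to FPKM instead of 1, and 2008 with 5 added. The log2(FPKM + 1) scale understates changes at low levels, and unlike levels of a gene between the lines were not corrected for. Of the 1316 genes called in HCT116, 472 (35.9%) also differed in the same direction from the other lines. Both tests use the same HCT116 libraries, so this share is not independent of the calls and cannot be weighed against the shares over all genes. DHRS2 rose in all 3 lines and most in HCT116, where it reached 70.3 ± 1.81 FPKM with ML-792 and 5.65 ± 0.285 FPKM with DMSO, while COLO205 had 16.8 ± 4.3 FPKM with ML-792 and 2.4 ± 0.501 FPKM with DMSO (SD, n = 3 each). The difference of its effects was 1.85 ± 0.16 (adjusted p = 6.7e-07, limma). EHF rose in HCT116 by 0.94 and fell by 0.30 in COLO205 (adjusted p = 0.00074), with a difference of 1.01 ± 0.06 (adjusted p = 3.2e-09). DKK1 had a difference of -1.10 (adjusted p = 9.2e-08), with the limit that it did not pass the filter in COLO205, and ID3 of -1.13 (adjusted p = 6.3e-07), and ID3 changed by 1.30 in MDAMB231. SUMO3 rose more in HCT116 than in the mean of the others (0.68, adjusted p = 4.1e-07), while for SUMO2 no difference passed the test (-0.07, adjusted p = 0.58). The other lines were unlike each other here. SUMO3 rose by 1.30 in HCT116, 1.01 in COLO205 and 0.23 in MDAMB231, and SUMO2 by 0.44, 0.84 and 0.18 in the same order.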

How the data were processed

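Polyadenylated RNA was sequenced as stranded paired-end libraries from biological triplicates, per the labels' protocols. The authors deposited 1 table of FPKM values per gene and library. The aligner, the build and the gene models behind it are not stated in the labels or the header, nor is how reads shared between genes were counted or whether strand was used. DESeq2 1.10.1 appears in the submitters' processing notes, but its role does not. FPKM hold no counts, so absolute depth is unknown and no count test was run. The groups follow the submitters' sample labels.

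Differences were tested with limma 3.58.1 in R 4.3.3 (empirical Bayes with trend and robust options) on log2(FPKM + 1), ML-792 minus DMSO, over all genes at 1 FPKM or more in 3 of 6 libraries, with Benjamini-Hochberg adjustment and a threshold of 0.05. Fold changes on this scale understate those of low genes. Errors are SE of the log2 change unless given as SD. The difference between lines was fitted over the 18 libraries of 16 h. The script was tested on simulated data. Transcript GC content and length came from the reference annotation by symbol, with 11649 of the genes kept (94.3%) matched, and 21557 gene names (71.0%) matched RefSeq. Named genes are the 14 largest rises and falls among called genes above the median level whose groups do not overlap, the 6 largest rises and 4 largest falls below it, up to 3 called genes per list with at least 2 called with the lowest adjusted p, a few genes of the SUMO and silencing systems, and the largest differences between lines. Members, lists and these rules were chosen with earlier results of these data known. Alternatives changed the pseudocount, filter, scaling, GC and length trend, variance model, libraries fitted and each replicate. Results for some genes are not reported here.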

Additional observations from a re-analysis of the deposited data

Results flagged for a closer look

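The 10 genes below, 5 on each side, had the largest called differences among genes above the median level between the ML-792 effect in HCT116 and the mean effect in COLO205 and MDAMB231 at 16 h, by limma over 18 libraries, with effects on the log2(FPKM + 1) scale. The 5 with the higher effect in HCT116 were DHRS2 (1.85 ± 0.16, adjusted p = 6.7e-07), ASMTL (1.35 ± 0.18, adjusted p = 0.00016), G0S2 (1.27 ± 0.18, adjusted p = 0.00024), ZFP36 (1.13 ± 0.21, adjusted p = 0.0026) and EHF (1.01 ± 0.06, adjusted p = 3.2e-09). ASMTL averaged 3.98 FPKM with ML-792 and 2.33 with DMSO in COLO205, and 14.5 and 8.52 in MDAMB231. ZFP36 averaged 42.8 ± 13.6 FPKM with ML-792 and 53.3 ± 2.46 with DMSO in COLO205 (SD, 3 libraries each), where its change did not pass the test (-0.36 ± 0.28, adjusted p = 0.36, limma). G0S2, an inhibitor of fat breakdown, was listed at 0 in HCT116, so its difference comes from the other lines, where it averaged 2.16 FPKM with ML-792 and 5.74 with DMSO in COLO205, and 25.8 and 70.4 in MDAMB231.

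The 5 with the lower effect in HCT116 changed little there and rose in COLO205. In MDAMB231 they also changed little beside COLO205. There ADIRF (0.06, adjusted p = 0.48, limma) and NSMF (-0.15, adjusted p = 0.17) did not pass the test, and PLIN2 rose by 0.31 and ATHL1 by 0.30. ENTPD8 was not tested in MDAMB231, where it averaged 0.49 FPKM with ML-792 and 0.37 with DMSO. ENTPD8 (-2.73 ± 0.07, adjusted p = 3.8e-14) averaged 93.1 FPKM with ML-792 and 0.865 with DMSO in COLO205, and 1.24 and 1.01 in HCT116. ADIRF (-2.08 ± 0.12, adjusted p = 1e-08) averaged 27.4 and 0.579 FPKM in COLO205, and 162 and 159 in HCT116. NSMF (-2.01 ± 0.08, adjusted p = 4.8e-11) averaged 238 FPKM with ML-792 and 12.5 with DMSO in COLO205. PLIN2, which coats lipid droplets (-1.72 ± 0.06, adjusted p = 1.7e-12), averaged 614 FPKM with ML-792 and 82.3 with DMSO in COLO205, and ATHL1 (-1.34 ± 0.07, adjusted p = 1.9e-09) averaged 137 and 28.9.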

How the results depend on the processing

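The counts of 727 genes called higher and 589 lower moved to 468 and 290 with no filter, to 1267 and 1101 with the GC and length trend removed, and to 1186 and 915 in a fit over the 18 libraries of 16 h. With 1 library left out they ranged from 297 to 1091 higher and from 192 to 971 lower. The count of 31 genes at 2-fold or more was 39 with a pseudocount of 0.1 and 11 with a pseudocount of 5. At 3.5 h, the count of 728 was 397 with no filter and ranged from 408 to 543 with 1 library left out. The change of NSMF in HCT116 turned to 0.12 (adjusted p = 0.029, limma) with the trend removed. The cause was not tested. No gene among the 14 largest rises lost its call under any alternative run, and of the 14 largest falls ID1 alone did, in 3 of them. These genes were chosen for large changes and groups that do not overlap. Among all genes covered by the naming rules, 34 of 134 had a weaker result without the second ML-792 library. The same held for 24 of 134 without the third ML-792 library and 31 of 135 without the second DMSO library. No paired analysis was possible because no replicate numbers in the labels are shared between the groups. With 3 libraries per group and unknown depth, the number of calls rested on which libraries were used, as the range shows.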

Other observations

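Some of the largest rises were of genes that follow each other on chromosome 2 in the RefSeq order, a pattern noticed after the values were seen. In that order, TAF1B changed by 0.29 ± 0.07 (adjusted p = 0.023, limma) and GRHL1, an epithelial transcription factor, was at 7.14, 7.78 and 7.78 FPKM in ML-792 libraries, against 2.62, 2.92 and 2.26 FPKM in DMSO libraries (1.25 ± 0.08, adjusted p = 2.7e-06). KLF11 (1.47), CYS1 (0.34 ± 0.09, adjusted p = 0.031) and RRM2 (0.93) came next, all called higher. HPCAL1 followed without passing the test (-0.15, adjusted p = 0.22), then ODC1 (1.08), and NOL10 did not pass (-0.03, adjusted p = 0.75). At 3.5 h, KLF11 changed by 0.73, GRHL1 by 0.08 (adjusted p = 0.45), RRM2 by 0.06 (adjusted p = 0.22) and ODC1 by 0.18. In COLO205, KLF11 changed by 1.23, GRHL1 by 0.36 (adjusted p = 0.23), RRM2 by 0.36 and ODC1 by -0.26 (adjusted p = 0.2). In MDAMB231, KLF11 changed by 0.19 (adjusted p = 0.019), RRM2 by 0.08 (adjusted p = 0.16) and ODC1 by 0.54 (adjusted p = 5.4e-05), and GRHL1 was not tested.

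Among rises of at least 2-fold outside the rule for named genes was CT45A3, a cancer-testis gene, at 1.51, 2.19 and 1.64 FPKM in ML-792 libraries and 0.146, 0.105 and 0.192 FPKM in DMSO libraries (1.27). IGFBP3, which binds insulin-like growth factors, changed by 1.02 and SLC16A6, a monocarboxylate transporter, by 1.12. CT45A3 and IGFBP3 passed the filter only through their ML-792 libraries, where they are high.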
